A study of Homo sapiens with 17 samples.

Results

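Cyclins, cyclin-dependent kinase (CDK) inhibitors and p53 regulators were examined in RNA of 3 prostate cell lines that had been pulled down with an antibody against N6-methyladenosine (m6A), a methylated adenosine, or with unspecific immunoglobulin G (IgG). The 9 genes were CCND1, CCND3, CCNE1, CCNE2, CDKN1A, CDKN1B, RB1, MDM2 and MDM4, of 16876 genes named in the tables. A region was taken as theirs where its overlap mark named an exon or intron of the gene, which gave 229 of 326944 regions: 107 from HPr1AR, 63 from LNCaP and 59 from 22Rv1. HPr1AR, immortalised prostate epithelium that is not cancerous and carries the androgen receptor, was grown in serum-free keratinocyte medium. LNCaP, an androgen-responsive prostate cancer line, and 22Rv1, derived from a castration-resistant xenograft, were grown in RPMI medium with serum, so that line and medium cannot be told apart where HPr1AR is compared with either. All groups were wild type and vehicle-treated, and the labels give cultures in biological triplicate. They list 17 samples in 6 groups, with 3 for each antibody and line except the m6A pull-down of 22Rv1, which has 2. A single table stands for each line without sample-level values, so that every interval and p-value below covers counting error only and none measures the spread between samples.

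m6A is set on messenger RNA by a methyltransferase complex, mostly within a short motif with a central A followed by C, and is known to be enriched in long internal exons, around stop codons and in 3 prime untranslated regions. Reader proteins that bind it can hasten the decay of the RNA or alter its splicing and translation. In the G1 phase of the cell cycle, D-type cyclins with CDK4 or CDK6 and E-type cyclins with CDK2 phosphorylate the retinoblastoma protein and release E2F factors. The inhibitors p21 (CDKN1A) and p27 (CDKN1B) restrain these kinases. MDM2 is the ubiquitin ligase that marks p53 for decay and MDM4 its partner, and both MDM2 and CDKN1A are p53 target genes.

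Sequence could be read here only at RefSeq transcript starts (GRCh38.p14), and 7 of the 9 genes had an entry there, with 12 starts in all. CCND1 and CCNE2 had none. The 50 bases after each start were searched for the m6A consensus: a base other than C, then A or G, then A, then C, then a base other than G, which makes 18 pentamers. On the sense strand 5 of the 12 starts held at least 1, beside 49.6% of all 35116 starts in the table; on the antisense strand it was 3 of the 12, beside 50.6%. MDM4 and MDM2 are shown because the calls at their first exons differed. The first exon region of MDM4 passed as higher with the antibody in all 3 lines and that of MDM2 in none. The difference between the 2 genes was not tested. Both stretches run 5′ to 3′ on the gene's strand, with the matching pentamer in capitals.
MDM4, chr1:204516438-204516455, plus strand: ctaggatctgTGACTgcc
MDM2, chr12:68809031-68809055, plus strand: attggagggtAGACCtgtgggcacg
The MDM4 pentamer began at base 43 after the start that opens the gene's span. The MDM2 pentamer lay after the pair of starts 845 and 852 bp into the gene, and the 2 starts at 0 and 5 bp had no match. CDKN1B, whose 5 prime region was higher in all lines, had none in this window either. A match is a description and not a methylated site. These coordinates follow GRCh38.p14 and are not those of the regions below, which are printed as the deposited files give them.

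The authors' deposited table lists, for every region, a p-value and a log2 fold at 1 representative window of 20 bp. The reads given for a region below are those of this window and not of its whole length. Because the fold subtracts the reference log rate 2 times, whole reads in the numerator and reference pull-downs were rebuilt from it, and their ordinary ratio was tested (exact binomial test, two-sided, Benjamini-Hochberg adjustment over all regions of a line, threshold 0.05). The headers do not name the numerator, so that reading it as m6A, and the reference as IgG, rests on the tables' names; "higher" means more numerator reads relative to depth. The rebuilt depths were 5.13 M numerator and 11.7 M reference reads in HPr1AR, 3.92 and 8.87 M in LNCaP, and 3.30 and 4.82 M in 22Rv1, and rates per M of these depths are called CPM. Where the deposited p is 0, only the smallest reads that the fold allows are known and the ratio is a lower bound, which applied to 8, 7 and 0 regions of the 9 genes in HPr1AR, LNCaP and 22Rv1. Read ratios of regions with few reads have wide intervals, so that a region that was not called is not shown to be unchanged. The RNA came from bulk cultures, in which more cells with a marked transcript and more marked RNA per cell cannot be told apart. Of the marker genes looked up, the basal epithelial genes KRT5, KRT14, TP63 and ITGB4 had exon regions in HPr1AR alone, and the luminal genes KLK3, KLK2, FOLH1 and TMPRSS2 in LNCaP and 22Rv1 alone.

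Which parts of these transcripts were recovered with the m6A antibody was the first question. Each of the 9 genes had at least 1 higher region in each line, and all except RB1 in HPr1AR had a higher exon region. For comparison, at least 1 higher exon region was found in 91.8% (HPr1AR), 88.9% (LNCaP) and 89.8% (22Rv1) of all genes that had any exon region, so that this count does not set the 9 genes apart. Region by region, HPr1AR had 37 of 107 higher, LNCaP 24 of 63 and 22Rv1 26 of 59, beside 40.6%, 40% and 56.4% of all regions of the lines. The median log2 read ratio of their regions was 0.65, 1.18 and 0.91, against 1.23, 1.18 and 2.10 over all regions. Shares are not compared between the lines, which differ in depth and in how many regions were listed. The authors' deposited table puts 104, 59 and 58 of these regions under an adjusted p of 0.05, and 96.5%, 95.4% and 99.3% of all regions.

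**Figure D1:**
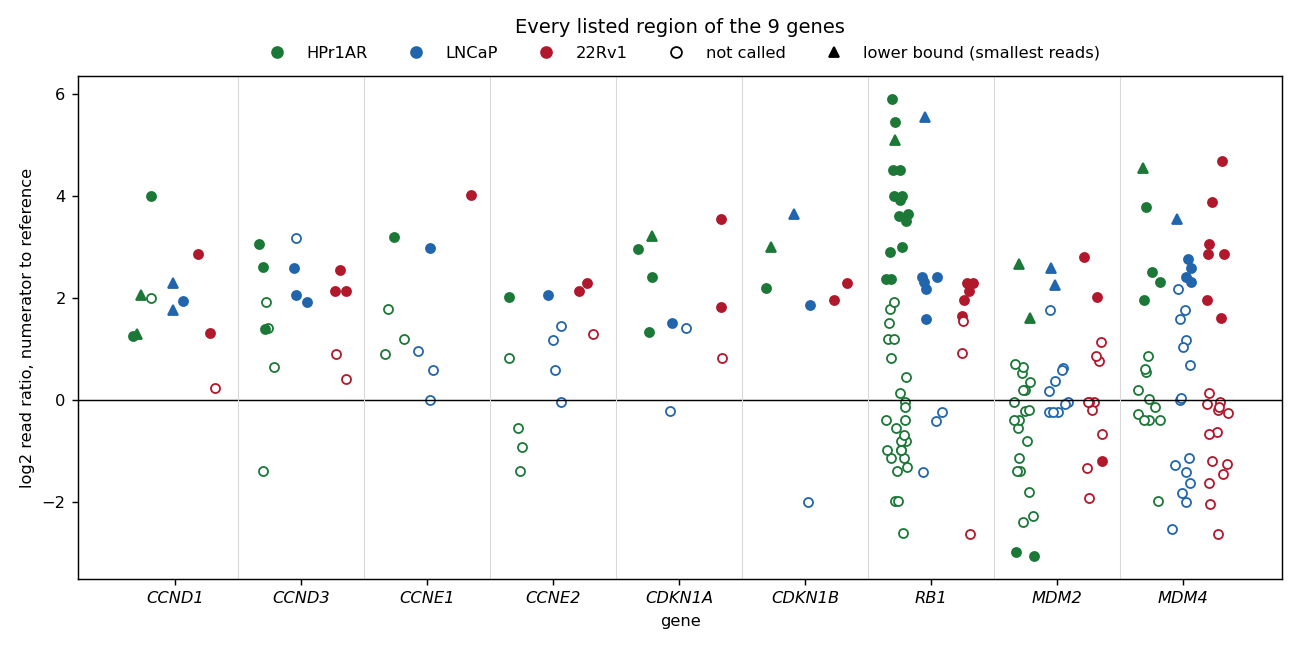
Log2 read ratio (numerator to reference, scaled by depth) of all 229 regions by gene and line; filled symbols passed the test, in either direction, open ones did not, triangles are lower bounds from the smallest reads, and counts of 0 are set to 3 reads. RB1 in HPr1AR spreads from -2.62 to 5.89, while no exon region of CDKN1B falls below 1.86.

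The regions were next described by their position along the gene. The position is that of the region, within which the representative window can lie away from the gene's end. An exon region was called a 3 prime end where other exons of its gene lay only upstream within 10000 bp, a 5 prime end where they lay only downstream, and internal where they lay on both sides. At the 3 prime end the higher regions were 8 of 13 for HPr1AR, 7 of 12 for LNCaP and 5 of 11 for 22Rv1, beside 63.1%, 62.6% and 69.4% of all such regions. Internal exon regions were higher in 7 of 38, 3 of 25 and 7 of 26, beside 31.1%, 28.4% and 34.8%. At the 5 prime end the counts were 3 of 9, 5 of 6 and 5 of 6, beside 59.2%, 57.4% and 63.1%. Lower regions numbered 2 in HPr1AR, 0 for LNCaP and 1 for 22Rv1, all of them MDM2's, beside 0.122%, 0.16% and 0.936% of all regions; at an unadjusted p of 0.05 these counts were 4, 0 and 1.

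To set the genes side by side, each was represented by a lead exon region, the one with the smallest deposited p. The lead passed as higher for 8 of 9 genes (HPr1AR), 9 of 9 (LNCaP) and 8 of 9 (22Rv1), beside 90.5%, 87.7% and 88.5% of all genes with an exon region. The exceptions were RB1 in HPr1AR, at 0.82, and CCND3 in 22Rv1, at 0.90. Since the lead was chosen by a p-value that falls with numerator reads, and ties by the largest deposited fold, these values may run high. The lead was not always the exon region with the most reads.

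**Figure D2:**
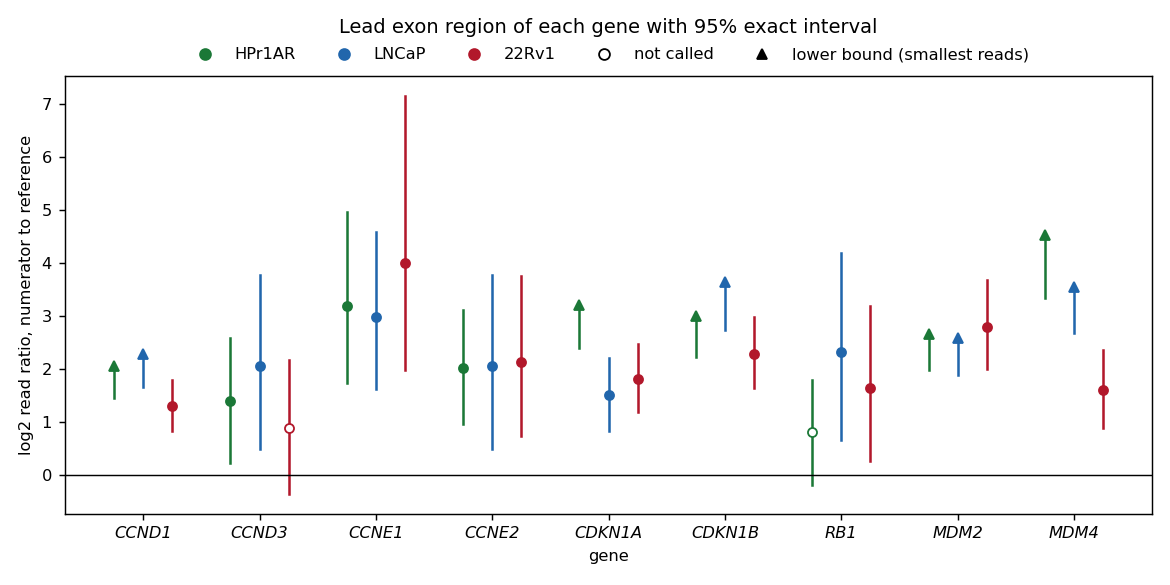
Log2 read ratio of the lead exon region of each gene in HPr1AR, LNCaP and 22Rv1, with 95% exact (Clopper-Pearson) intervals; triangles are lower bounds with no upper limit, and open symbols did not pass. The values run from 0.82 for RB1 to at least 4.54 for MDM4, both in HPr1AR.

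CCND1 encodes cyclin D1, the D-type cyclin that couples growth signals to CDK4 and CDK6. Its first region covered the start of the gene on chromosome 11 (69455861 to 69460850 in HPr1AR). In HPr1AR its representative window began between 69458281 and 69458661, inside the region and not at the start of the gene. The windows held at least 66 numerator against 36 reference reads in HPr1AR, at least 67 against 31 in LNCaP and 102 against 60 in 22Rv1. These give log2 read ratios of at least 2.06 (lower 95% limit 1.46), at least 2.29 (1.65) and 1.31 (0.84 to 1.80), all 3 higher. The middle exon region of each line was higher too, with 24 against 23 reads in HPr1AR (interval 0.36 to 2.14), 27 against 16 in LNCaP (1.93) and 55 against 11 in 22Rv1 (2.87, interval 1.92 to 3.95). Its extent differed: 69462741 to 69463410 in HPr1AR, 69459941 to 69464610 in LNCaP and 69459691 to 69464640 in 22Rv1. The windows of LNCaP and 22Rv1 lay 1170 bp apart, so that these may be different sites.

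The last CCND1 region, which runs to 69469260 in HPr1AR and LNCaP and to 69469580 in 22Rv1, passed in HPr1AR and LNCaP and not in 22Rv1. It was higher in HPr1AR with at least 72 against 67 reads (at least 1.29) and in LNCaP with at least 69 against 46 (at least 1.76), but in 22Rv1 it held 80 against 100, a ratio of 0.23 (interval -0.22 to 0.66, adjusted p 0.422). Its reference rate was at least 5.72 CPM in HPr1AR, at least 5.19 CPM in LNCaP and 20.7 CPM in 22Rv1. Numerator rates were at least 14, at least 17.6 and 24.3 CPM. The part of the reference rate in the lower 22Rv1 ratio was not tested. Cyclin D1 also had an intron region in HPr1AR, from 69463761 to 69464940, with 14 against 2 reads (interval 1.88 to 7.18). The middle exon regions of LNCaP and 22Rv1 reach into this stretch.

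CCND3, the cyclin D3 gene on the minus strand of chromosome 6, carried far fewer reads. Its 3 prime region held 15 against 13 reads in HPr1AR, 11 against 6 in LNCaP and 14 against 11 in 22Rv1, with intervals of 0.23 to 2.59, 0.49 to 3.77 and -0.35 to 2.18. It passed in HPr1AR and LNCaP and not in 22Rv1. At the end that is upstream for this gene, a region ending at 41909520 was higher in LNCaP with 8 against 3 reads (2.59) and in 22Rv1 with 12 against 4 (2.13), while the wider HPr1AR region there held 11 against 16 (0.65). No pair of lines differed at either place after adjustment (adjusted p 1). In each line 1 intron region within 41905441 to 41905700 had no reference read in its representative window, with 11, 5 and 9 numerator reads there. Against a floor of 3 reads its log2 ratio was at least 3.06, 1.91 and 2.13. An internal exon region of 22Rv1, from 41904991 to 41905130, was higher with 8 against 2 reads (2.55), and so was an HPr1AR intron region from 41907191 to 41907240 with 8 against 0.

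The E-type cyclins act at the G1 to S transition with CDK2. CCNE1 showed 1 high region, at its 3 prime end on chromosome 19 (30314561 to 30315180 in HPr1AR), and no call elsewhere. That region held 20 against 5 reads in HPr1AR, 21 against 6 in LNCaP and 22 against 2 in 22Rv1, which are ratios of 3.19 (1.73 to 4.96), 2.99 (1.63 to 4.58) and 4.01 (1.98 to 7.14). Its representative windows lay at most 10 bp apart between any pair of lines, where a distance is the gap between the ranges that can hold the windows and 0 where the ranges overlap. The other 3 CCNE1 exon regions of HPr1AR and of LNCaP did not pass, with ratios from 0.90 to 1.78 and from 0.01 to 0.96, and 22Rv1 listed none.

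CCNE2 on chromosome 8 likewise had its higher exon regions at the 3 prime end only. Its main 3 prime region held 23 against 13 reads in HPr1AR, 11 against 6 in LNCaP and 18 against 6 in 22Rv1, with ratios of 2.01 (0.97 to 3.12), 2.05 (0.49 to 3.77) and 2.13 (0.74 to 3.75). All were higher, and the differences between lines were at most 0.12 in size. The intervals of these differences reach down to -2.34, for LNCaP against 22Rv1, and run from -2.06 to 1.71 for HPr1AR against 22Rv1. Upstream exon regions of CCNE2 in HPr1AR held 2 against 12 and 3 against 10 reads, ratios of -1.39 and -0.55, and a further one 10 against 13 (0.81), none of which passed. The upstream exon regions of LNCaP (0.59 and 1.44) and 22Rv1 (1.28) did not pass either. A last exon region, from 95892331 to 95892480 in HPr1AR, overlapped an exon of INTS8 on the opposite strand and did not pass either, with 3 against 13 reads in HPr1AR and 4 against 4 in LNCaP. In 22Rv1 an intron region from 95907291 to 95907380 was higher with 10 reads against 0.

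**Figure D3:**
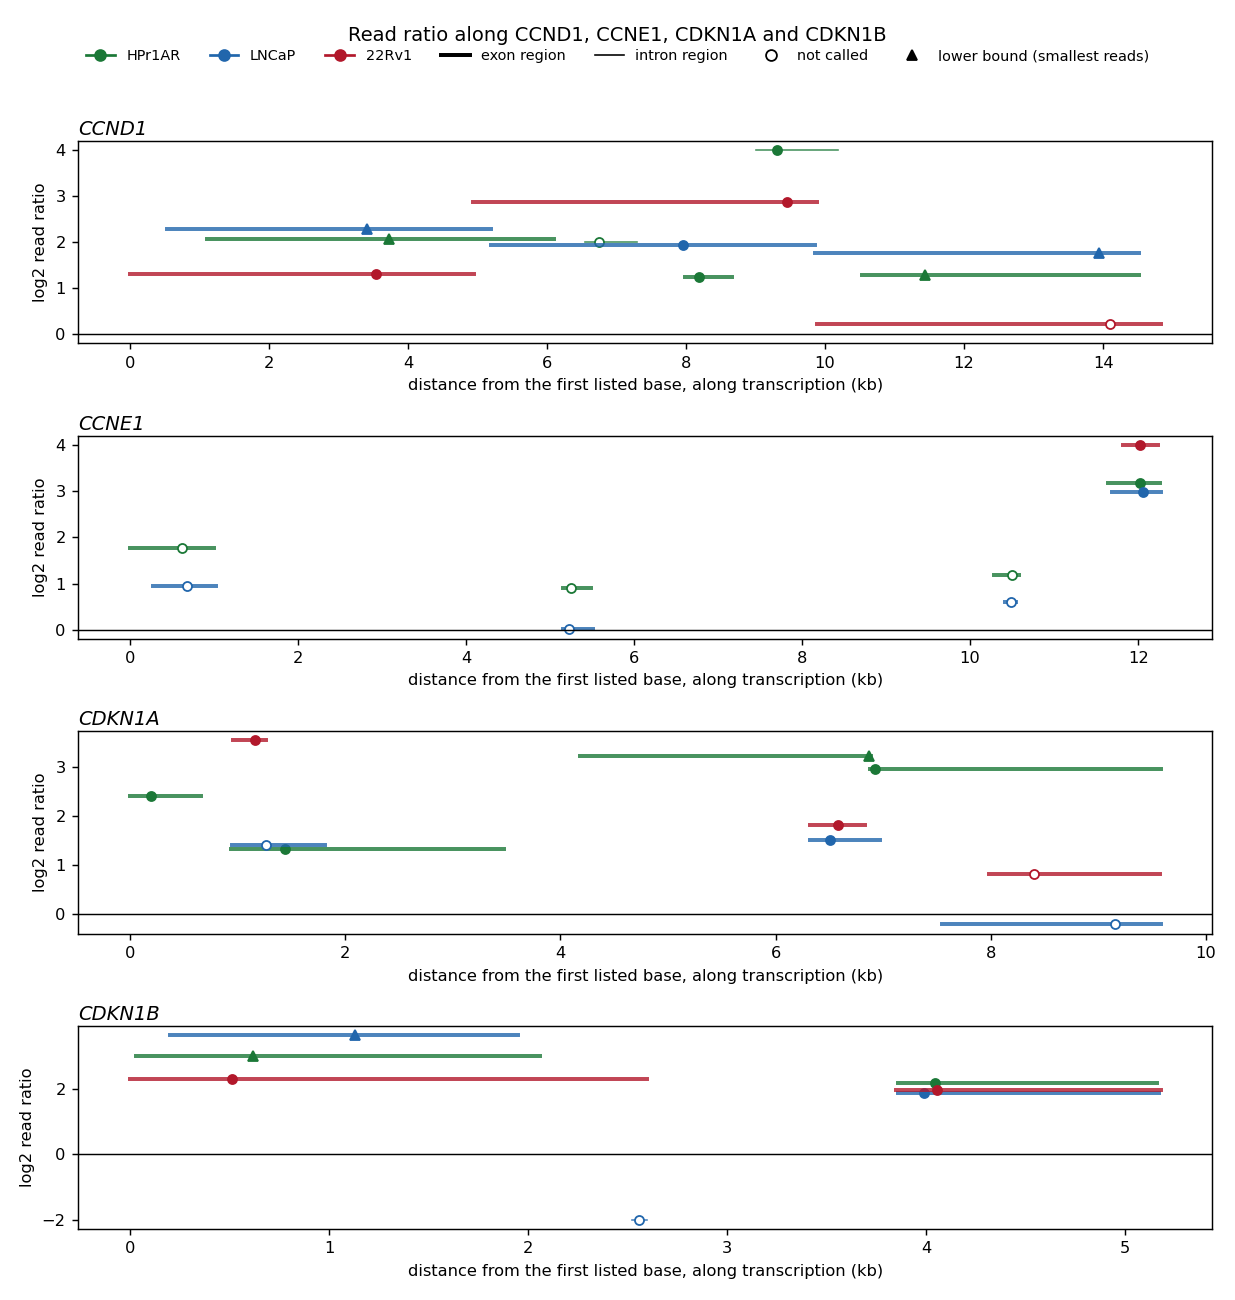
Log2 read ratio along CCND1, CCNE1, CDKN1A and CDKN1B against the distance in kb from the first listed base in the direction of transcription; bars span the regions, symbols mark the representative windows, and open symbols did not pass. CCNE1 rises at its last region in all 3 lines, the last CCND1 region is near 0 in 22Rv1, and the CDKN1A values are highest at about 6 to 7 kb in HPr1AR and LNCaP.

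CDKN1A, which encodes p21, had its main signal on chromosome 6 between 36651861 and 36652510, where the tables divide the locus differently. HPr1AR listed 2 abutting regions whose representative windows both lay at the junction, at 36652391 to 36652411 and at 36652421 to 36652491. They held at least 65 against 16 and 61 against 18 reads, ratios of at least 3.21 (lower limit 2.41) and 2.95 (2.17 to 3.80). LNCaP had its window at 36652041 with 43 against 34 reads (1.52, 0.83 to 2.21), and 22Rv1 at 36652111 with 75 against 31 (1.82, 1.20 to 2.48). All were higher. Further downstream, LNCaP held 13 against 34 reads (-0.21, -1.26 to 0.75) and 22Rv1 23 against 19 (0.82, -0.12 to 1.78), and neither passed. The most upstream region of 22Rv1, from 36646501, was also higher, with 8 reads against 1 and a wide interval (3.55, 0.65 to 9.02). HPr1AR had 34 against 31 (1.32) there, which passed, and LNCaP 7 against 6 (-0.40 to 3.25), which did not. A further upstream region of HPr1AR held 7 reads against 0 and passed.

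CDKN1B, the p27 gene, had 2 exon regions in each line, and all of them were higher. The 5 prime region on chromosome 12 (12870131 to 12872160 in HPr1AR) held at least 63 against 18 reads in HPr1AR, at least 66 against 12 in LNCaP and 87 against 26 in 22Rv1. The ratios were at least 3.00 (lower limit 2.22), at least 3.64 (2.74) and 2.29 (1.64 to 2.98). The 3 prime region held 32 against 16, 32 against 20 and 53 against 20 reads, with ratios of 2.19 (1.28 to 3.15), 1.86 (1.01 to 2.74) and 1.95 (1.19 to 2.77). Representative windows of the 3 prime region lay at most 10 bp apart, and no difference between lines passed there. The intervals of these differences reach at most 1.64 log2 units, so that larger differences at this site lie outside them.

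RB1, the retinoblastoma gene and the target of these kinases, spans a long stretch of chromosome 13 and had 41 regions in the HPr1AR table, 9 in that of LNCaP and 8 in that of 22Rv1. Few of its exon regions were higher. In HPr1AR 0 of 16 exon regions were higher, with a median log2 read ratio of -0.81 and a range from -2.62 to 1.19. In LNCaP 1 of 4 was higher and in 22Rv1 2 of 4. The 5 prime exon region held 17 against 22 reads in HPr1AR (0.82, -0.19 to 1.80), 11 against 5 in LNCaP (2.32, 0.67 to 4.19) and 15 against 7 in 22Rv1 (1.65, 0.27 to 3.18). A promoter mark of the divergent gene RB1-DT also lies there. An internal exon region of 22Rv1, from 49039341 to 49039600, held 10 reads against 0, a ratio of 2.28 with the reference set to the floor. In HPr1AR 11 against 23 reads (0.13) lay there and in LNCaP 2 against 6 (-0.41), and neither difference to 22Rv1 passed (adjusted p 0.199 and 0.561).

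Among the intron regions of RB1, 15 of 25 were higher for HPr1AR, 5 of 5 for LNCaP and 3 of 4 for 22Rv1. Of these 9, 5 and 3 overlapped LPAR6, a lysophosphatidic acid receptor gene that lies inside an RB1 intron on the opposite strand. The one with the most reads, from 48985411 to 48987260 in HPr1AR over an exon and promoter mark of LPAR6, held at least 60 against 4 reads in HPr1AR and at least 62 against 3 in LNCaP, with ratios of at least 5.10 (lower limit 3.67) and 5.55 (3.93). 22Rv1 listed no region there, and its 3 regions over LPAR6 held 8 to 10 numerator reads against 0. The strand of the reads is not given in the sources used here, so that RB1 and LPAR6 cannot be told apart in these regions. Outside LPAR6, HPr1AR had further higher intron regions, such as 20 against 2 reads from 48878691 to 48878960 (4.51, 2.47 to 7.65), next to the first exon and over the promoter mark of RB1-DT, and 16 against 0 from 48923751 to 48924040. LNCaP and 22Rv1 had no higher RB1 intron region outside LPAR6.

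MDM2 had higher regions at its 3 prime end and lower ones upstream. On chromosome 12 from 69232971 onwards, its 3 prime end exons held 2 wide regions in HPr1AR with at least 68 against 51 and at least 69 against 25 reads. Their ratios were at least 1.61 (lower limit 1.06) and at least 2.65 (1.98). In LNCaP the corresponding regions held at least 67 against 32 and at least 66 against 25 (at least 2.24 and 2.58), and in 22Rv1 76 against 16 and 64 against 23 (2.80, 2.00 to 3.67, and 2.02, 1.32 to 2.78). These were the only higher MDM2 regions, 2 of 23 for HPr1AR, 2 of 12 for LNCaP, 2 of 13 for 22Rv1.

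Upstream of these regions MDM2 had no higher call. The first exon held 26 against 41 reads in HPr1AR (0.53, -0.23 to 1.28), 19 against 28 in LNCaP (0.62) and 14 against 12 in 22Rv1 (0.77), none of which passed. In HPr1AR the exon regions from 69208351 to 69209190 and from 69213491 to 69214770 were lower, with 1 read against 18 and 1 against 19. Their ratios were -2.98 (-8.36 to -0.32, adjusted p 0.0315) and -3.06 (-8.43 to -0.40, adjusted p 0.0317). An intron region of 22Rv1 from 69215121 to 69215200 was lower with 0 reads against 10 (adjusted p 0.0147). Its ratio was -1.19 with the numerator set to 3 reads. These lower calls rest on 1 or 0 numerator reads, and none held at a threshold of 0.01.

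MDM4 had 1 exon region with more numerator reads than any of its other exon regions. On chromosome 1 the exon region from 204518221 to 204521090 held at least 61 against 6 reads in HPr1AR, at least 67 against 13 in LNCaP and 52 against 25 in 22Rv1, with ratios of at least 4.54 (lower limit 3.33), at least 3.54 (2.67) and 1.60 (0.89 to 2.35). Reference rates were at least 0.512, at least 1.47 and 5.19 CPM. The first exon region was higher in all lines as well, with 10 against 4, 11 against 5 and 20 against 4 reads (2.51, 2.32 and 2.87). Regions downstream of the dominant site, from 204521741 to 204527120, did not pass in any line, with ratios from -1.99 to 1.76. HPr1AR also had higher regions with 13 against 6 reads from 204506461 to 204507450 and 17 against 10 from 204511901 to 204512090, where LNCaP (8 against 18, 10 against 11) and 22Rv1 (4 against 6, 11 against 17) had no call. These differences did not pass after adjustment (smallest adjusted p 0.549). Intron regions within 204497311 to 204498410 held 24 against 4, 6 against 6 and 15 against 0 reads, and passed in HPr1AR and 22Rv1.

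Far downstream, MDM4 intron and exon marks ran through LRRN2, a leucine-rich repeat neuronal gene on the opposite strand. In 22Rv1 the region from 204586391 to 204589350 held 53 reads against 0, a ratio of 4.69 with the reference set to the floor (lower limit 4.34). Inside it LNCaP had 9 against 0 and 7 against 0 reads, both higher, and 4 against 2, which did not pass. The other 3 regions of 22Rv1 over LRRN2 were higher too: an exon-marked region from 204590491 to 204590640 with 10 reads against 1 (3.87, 1.06 to 9.31), and intron regions with 17 against 0 and 8 against 0. That exon-marked ratio was above the 1.60 of the region at 204518231, on far fewer reads. HPr1AR listed no region over LRRN2. As with LPAR6, the strand of the reads is not given, so that strand cannot tell MDM4 and LRRN2 apart. The regions over LRRN2 lie farther from the first MDM4 exon region than the 41715 bp that the gene spans in GRCh38. Only the deposited marks assign them to MDM4, unlike LPAR6, which lies inside an RB1 intron. Regions over LPAR6 or LRRN2 made up 9 of the 37 higher regions of HPr1AR, 7 of the 24 of LNCaP and 7 of the 26 of 22Rv1.

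**Figure D4:**
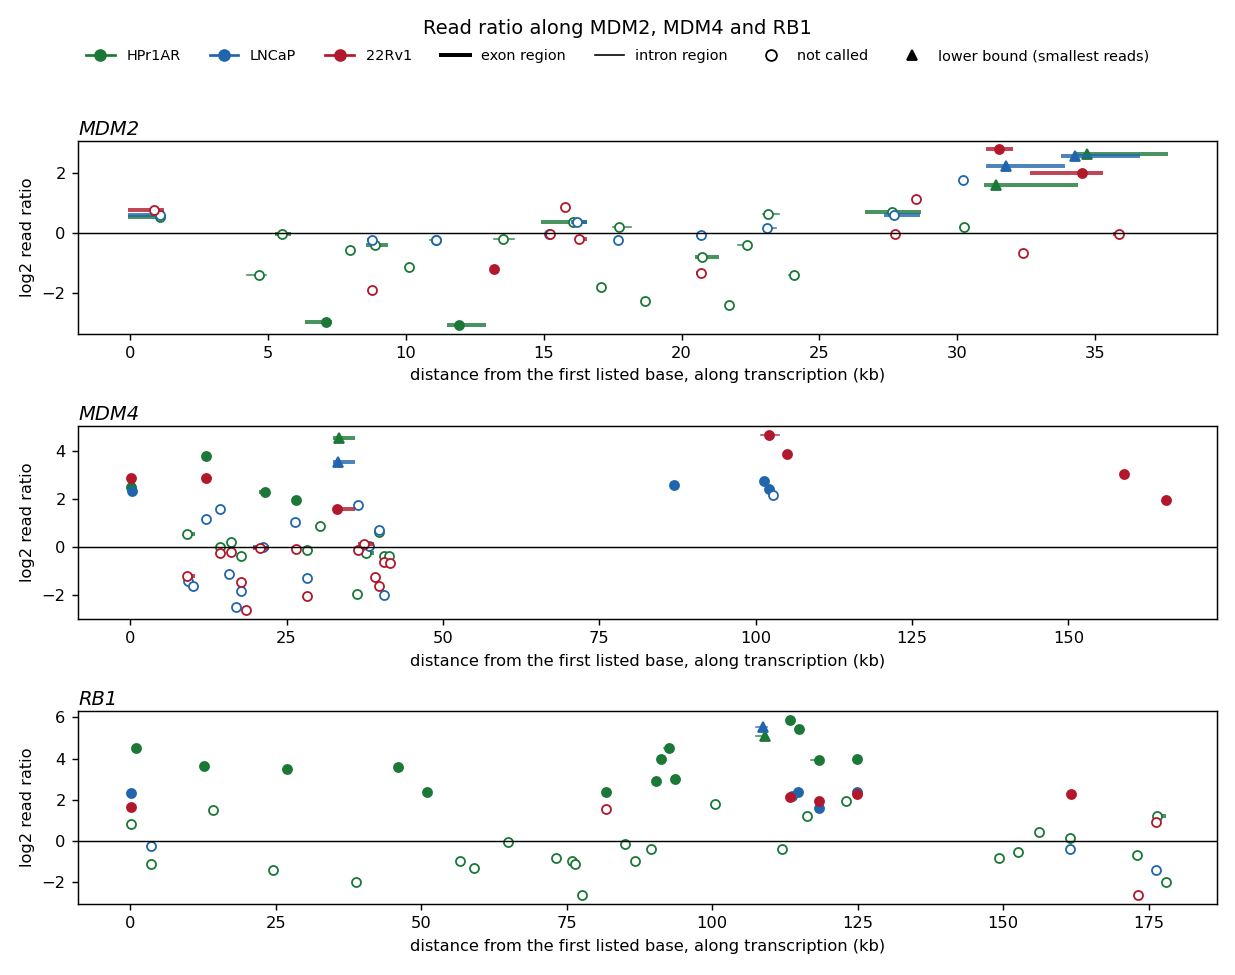
Log2 read ratio along MDM2, MDM4 and RB1 against the distance in kb from the first listed base in the direction of transcription; thick bars are exon regions and thin bars intron regions, symbols mark the representative windows, triangles are lower bounds, and open symbols did not pass. Higher MDM2 regions lie at the right end only, the dominant MDM4 region is lowest in 22Rv1, and RB1 is highest over LPAR6.

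Whether the ratio itself differed between lines was tested on overlapping regions, each the other's largest overlap (exact conditional test, two-sided, Benjamini-Hochberg adjustment over all pairs of regions of the 2 lines). Of 45 testable pairs of these genes in HPr1AR and LNCaP, 1 differed, as did 1 of 43 in HPr1AR and 22Rv1 and 1 of 43 in LNCaP and 22Rv1. Over all regions 0.431%, 0.554% and 0.361% differed. By direction these shares divide into 0.211% higher in HPr1AR and 0.221% higher in LNCaP, 0.389% higher in HPr1AR and 0.165% higher in 22Rv1, and 0.26% higher in LNCaP and 0.101% higher in 22Rv1. At an unadjusted p of 0.05 the counts were 5, 7 and 6. A pair that did not pass is not shown to be alike.

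The 3 differing pairs belonged to different genes. The dominant MDM4 region was higher in HPr1AR than in 22Rv1 by at least 2.93 log2 units (lower limit 1.46, adjusted p 0.00415), with representative windows 190 bp apart. LNCaP was at least 1.94 above 22Rv1, which did not pass (adjusted p 0.12), and HPr1AR and LNCaP, both lower bounds, were not compared. The last CCND1 region was higher in LNCaP than in 22Rv1 by at least 1.54 (lower limit 0.81, adjusted p 0.00719), at windows that may coincide. In HPr1AR the same region was at least 1.07 above 22Rv1 (adjusted p 0.145), with the window 2460 bp away. The downstream CDKN1A region was higher in HPr1AR than in LNCaP by 3.16 (1.86 to 4.48, adjusted p 1.05e-04). Its windows lay 2130 bp apart, so that the HPr1AR junction described above is set against the far end of the gene in LNCaP. With windows limited to at most 200 bp apart, 0 pairs of these genes differed between HPr1AR and LNCaP. Between the windows nearest each other at that site, HPr1AR was at least 1.70 above LNCaP (adjusted p 0.152).

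**Figure D5:**
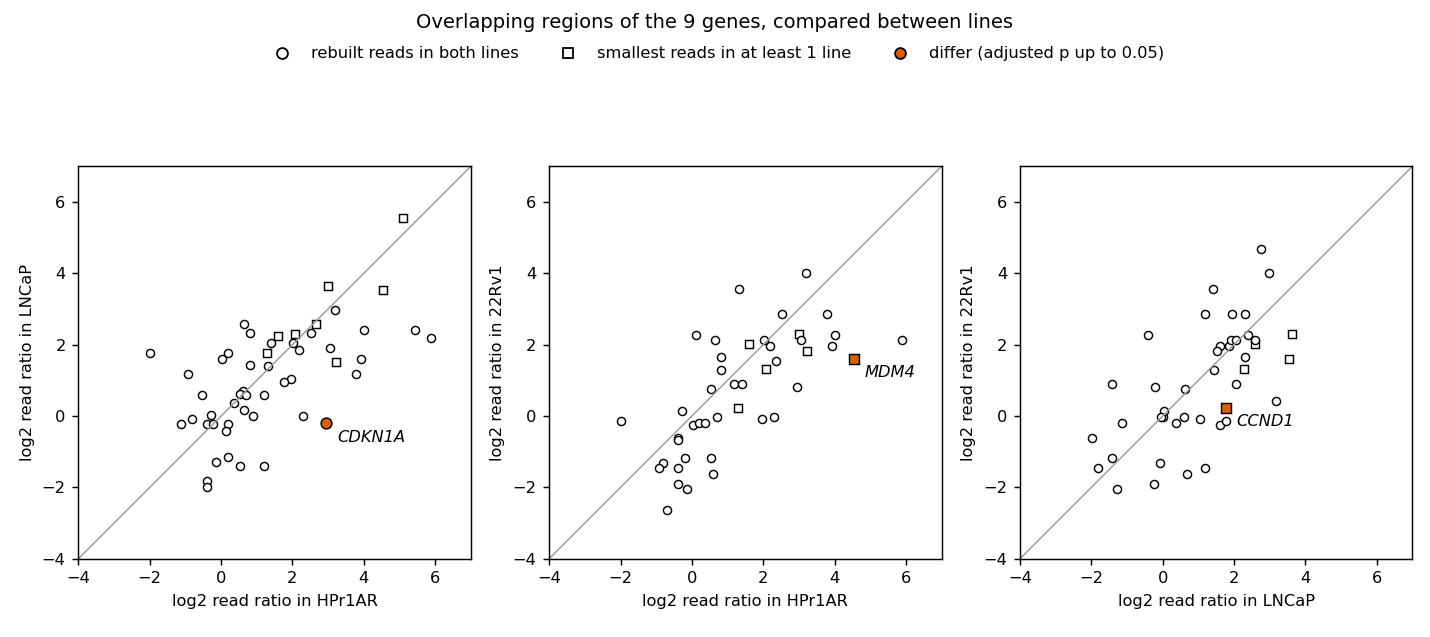
Log2 read ratio of each overlapping region of the 9 genes in 1 line against another, with the line of equal ratios; squares involve smallest reads, orange marks the pairs that differed. CDKN1A, MDM4 and CCND1 lie below the line in HPr1AR against LNCaP, HPr1AR against 22Rv1 and LNCaP against 22Rv1, in that order.

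Positions were compared as a share of each list. Of the LNCaP regions of these genes 90.5% overlapped one in HPr1AR by at least 1 bp, and of the HPr1AR regions 51.4% overlapped one in LNCaP; over all regions these shares were 65.2% and 50.5%. For HPr1AR and 22Rv1 they were 44.9% of the HPr1AR and 88.1% of the 22Rv1 regions (38.9% and 77.6% over all regions). For LNCaP and 22Rv1 they were 76.2% and 79.7% (49.8% and 78.9%). Among pairs of regions higher in both lines, representative windows lay within 100 bp of each other in 12 of 18 pairs of HPr1AR and LNCaP, 11 of 15 of HPr1AR and 22Rv1 and 11 of 16 of LNCaP and 22Rv1. The median of the same distance, the gap between the ranges that can hold the windows, was 20, 0 and 50 bp. Between the middles of these ranges the median was 187.5, 55 and 75 bp. The regions of a pair overlap by selection, and the share over all pairs was not computed. Closeness is thus not read as a trait of these genes.

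The wider pathway was described by 53 further genes. HPr1AR listed exon regions for 52 of them, LNCaP for 50 and 22Rv1 for 51. The CDK inhibitor gene CDKN1C had none in HPr1AR and LNCaP, the cyclin D2 gene CCND2 none in LNCaP and 22Rv1, and E2F6 none in LNCaP and 22Rv1. At least 1 higher exon region was found for 46, 41 and 46 of the listed genes, beside 91.8%, 88.9% and 89.8% of all genes, and at least 1 lower one for 0, 3 and 4, beside 0.923%, 0.916% and 3.21% of all genes. The lower ones were CCNB2, CDK1 and the deubiquitinase gene USP7 in LNCaP, and CCNC, CDC25A, RBL2 and USP7 in 22Rv1. Exon regions of other CDK inhibitors (CDKN2A, CDKN2B, CDKN2C, CDKN2D and, in 22Rv1, CDKN1C) were higher in 9 of 9, 8 of 12 and 10 of 12. Those of other cyclins and CDKs were higher in 16 of 60, 8 of 42 and 11 of 41. All exon regions gave 45.7%, 44.3% and 51.7%, and those of the 9 genes 18 of 61, 15 of 43 and 17 of 43.

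Among the 53 genes, the largest lower limits of a lead region belonged to E2F2, the p53-induced phosphatase gene PPM1D and the mitotic inhibitor kinase gene WEE1 in HPr1AR. In LNCaP they belonged to E2F2, the p53 target BTG2 and FBXW7, which recruits cyclin E for decay, and in 22Rv1 to E2F5, the death receptor gene FAS and PPM1D. The E2F2 lead region held at least 62 reads against 0 in HPr1AR and at least 62 against 1 in LNCaP, and PPM1D 68 against 2 in 22Rv1 (5.63, 3.73 to 8.71). By the share of higher exon regions over the 3 lines, the genes most like the 9 as a group were WEE1, CUL1 and RRM2B, of 15 genes with at least 5 exon regions in each line. The summed differences of their shares were 5.84, 12.2 and 12.3 percentage points.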

How the data were processed

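RNA pulled down with an m6A antibody or IgG was sequenced in 3 prostate cell lines, and the authors deposited 1 table of regions per line. Per the file headers, each region has a p-value and an adjusted p-value, a log2 fold at its representative window, and other columns with window counts, directions and gene marks. The submitters' processing notes name hg38, but only 20 of the 229 regions of these genes overlap their gene's GRCh38 span, so coordinates are printed as deposited and were not converted. No aligner, counter or test is named: each is not given in the sources used here. There were 0 columns of single samples, so no test over samples and no leave-one-out was possible. Whether a further m6A sample of 22Rv1 entered its table is not known.

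The deposited fold was found to equal a constant plus the log2 of the numerator reads and prior, less 2 times that of the reference reads and prior, with whole reads in both. Constants were fitted on regions of 1 window, to a largest residual of 0.00582 log2 units (LNCaP). Depths follow from the priors, assumed to scale with depth, and every ratio rests on them. Whole reads were found for 99.9% or more of the regions with p above 0 in each line. After a random shift of the folds they were still found for 0.455%, 10.2% and 1.40% in HPr1AR, LNCaP and 22Rv1, so that counts rebuilt for LNCaP are less certain than the others. Ratios were tested as described in the results, with Python 3.11.15 and scipy 1.17.1; 95% intervals are Clopper-Pearson, and 3 reads served as the floor where none was counted. Reads without molecular identifiers are not independent molecules. The representative window was selected by p, so higher ratios may run high. The rebuild and both tests were tested on simulated data. Of simulated pairs with a log2 change of 3, 8.5% (HPr1AR and LNCaP), 9.5% (HPr1AR and 22Rv1) and 10.5% (LNCaP and 22Rv1) were called. Most differences of that size would thus be missed. Of simulated regions with a log2 ratio of 2, 36%, 25.5% and 42% were called in HPr1AR, LNCaP and 22Rv1. With a log2 ratio of 4 these shares were 78.5%, 63.5% and 76%.

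Lead regions had the smallest deposited p among a gene's exon regions. The 9 genes, the 53 pathway genes and the tests were chosen with earlier results of these data known. Named pathway genes are those without a region, those with a lower region, the 3 with the largest lower limit per line, and the 3 most like the 9 genes. The genes with a lower region were named after their values were seen.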

Additional observations from a re-analysis of the deposited data

Results flagged for a closer look

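In all, 3 differences between lines passed the exact conditional test of the difference itself. The dominant MDM4 exon region differed by at least 2.93 log2 units between HPr1AR and 22Rv1, with reference rates of at least 0.512 and of 5.19 CPM. The last CCND1 region differed by at least 1.54 between LNCaP and 22Rv1, with reference rates of at least 5.19 and of 20.7 CPM. The downstream CDKN1A region differed by 3.16 between HPr1AR and LNCaP, at windows 2130 bp apart. Line and growth medium cannot be told apart in the MDM4 and CDKN1A comparisons, which involve HPr1AR, while LNCaP and 22Rv1 shared a medium. The part of the reference rate in these differences was not tested.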

How the results depend on the processing

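No paired analysis was possible because the tables hold no value per sample, and for the same reason no replicate could be left out. Under the authors' deposited adjusted p, 104 HPr1AR, 59 LNCaP and 58 22Rv1 regions of the 9 genes pass, and with exon marks only 18, 15 and 17 were higher. The other alternatives gave 28 to 45 higher regions in HPr1AR (37 in the report), 16 to 28 in LNCaP (24) and 19 to 29 in 22Rv1 (26). Multiplying p by the number of windows gave 28, 17 and 21; this, leaving out regions over LPAR6 or LRRN2, every alternative for lower calls and the limit on window distance were chosen after seeing the data. Lower calls (2, 0 and 1) moved with the setting: with the depth ratio raised by 25% there were 4 in HPr1AR, 1 in LNCaP and 4 in 22Rv1, with it lowered 0 in HPr1AR and still 1 in 22Rv1, and at a threshold of 0.01 or with p multiplied by the windows 0 in HPr1AR and 22Rv1. A reciprocal overlap of 50% left 32 of 107 HPr1AR regions shared with LNCaP (55 before) and 22 with 22Rv1 (48 before). Each of the 3 differing pairs held at 0.01, at a reciprocal overlap of 50% and when set against the median difference of all pairs (largest adjusted p 0.0122). With windows at most 200 bp apart, 0 differed between HPr1AR and LNCaP, and the other pairs held (adjusted p 0.012 and 0.0277). Of 81 alternatives for the 27 lead ratios 77 kept their direction and side of the threshold, but many of these could not change. A floor of 1 read left all 27 as they were, since no lead region had a count of 0. The lead by most reads was another region only for CCND1 in each line and for MDM2 in HPr1AR and LNCaP. Summed over exon regions, RB1 in HPr1AR turned to -0.24, RB1 in LNCaP fell to 0.39 and no longer passed, and CCND3 in 22Rv1 passed at 1.20. Summed reads were judged by an unadjusted p (exact binomial test) and lead regions by an adjusted one, also in the count of 77 above. By most reads CCND1 in 22Rv1 fell to 0.23. Depth limits the calls, since most regions hold few reads.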
